A study of Drosophila melanogaster with 6 samples.

Results

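The thioester-containing proteins of *Drosophila* are the 4 genes *Tep1*, *Tep2*, *Tep3* and *Tep4* together with their relative *Mcr* (macroglobulin complement-related). The 5 genes were chosen by name, with earlier results of these data known, and found by their FlyBase identifiers among the 17492 genes of the count table. RNA was sequenced after poly(A) selection from the whole heads of flies of line 5905, which the methods give as w1118, used as wild type. The methods name males for the ageing of flies and for isotope tracing. They state no sex in the section on RNA. There were 3 samples of 30d heads and 3 samples of 3d heads, and all 6 carry the same *white* mutation. How many flies went into each RNA sample, and whether the samples of one age were separate cultures, is not given in the sources used here, so the p-values measure the spread between these samples alone. Total gene counts ranged over 3479385 to 3544615 for 30d heads, against 3176380 to 3741860 for 3d heads.

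Thioester-containing proteins are secreted relatives of vertebrate complement factors and of the alpha-2-macroglobulin protease inhibitors. A reactive thioester bond lets such a protein attach to a microbe or a damaged surface, which marks the target for uptake by phagocytes. In flies they are made mainly by the fat body and by the blood cells (hemocytes) and released into the hemolymph. In cultured *Drosophila* cells *Tep2*, *Tep3* and *Mcr* are each known for a part in the uptake of a different kind of microbe. *Tep4* is known as a marker of blood cell progenitors in the larval lymph gland, and *Tep1* as a gene that follows JAK-STAT signaling. *Mcr* lacks the thioester residues and is also a component of septate junctions, the seals between epithelial or glial cells.

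All 5 genes lie on the left arm of chromosome 2 (2L) of dm6, at 4 separate places. *Tep2* (FBgn0041182, 7693727 to 7701601, minus strand) and *Tep3* (FBgn0041181, 7702805 to 7710690, plus strand) are direct neighbours transcribed away from each other, with 1203 bp between their ends. *Mcr* (FBgn0267488, 8074117 to 8082982, minus strand) lies 363.4 kb beyond *Tep3*. *Tep1* (FBgn0041183, 15888640 to 15893811, minus strand) and *Tep4* (FBgn0041180, 19548507 to 19556451, plus strand) stand alone. Their exons cover 4219 bp in *Tep1*, 5288 bp in *Tep2*, 4928 bp in *Tep3*, 4889 bp in *Tep4* and 6296 bp in *Mcr*. Another annotated gene of the family, the pseudogene *Tep5Psi* (FBgn0264845), starts 2464 bp after *Tep4* on the same strand.

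In old heads, *Tep2* and *Tep4* rose by 1.72-fold and 1.59-fold, *Mcr* and *Tep3* did not pass the test, and *Tep1* fell below the filter on low counts. Of the 5 genes, 4 passed the filter on low counts, and 2 of these 4 were called, both higher at 30d. A gene is called here when the quasi-likelihood test of edgeR gives it an adjusted p-value below 0.05. Among all 8773 genes tested, 30.4% were called in either direction, 14.4% higher and 16.1% lower at 30d, so calls were common in these heads. The levels of 3 of the 4 genes did not overlap between the ages, against 44.8% of all genes tested. In whole heads, fewer cells of a type and less RNA per cell cannot be told apart, and the same holds for more cells and more RNA.

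*Tep2* had 1362, 1500 and 1528 counts in the 30d samples, against 681, 877 and 829 in the 3d samples. After scaling to library size with edgeR's TMM factors, this is 371, 410.2 and 437 CPM (counts scaled to a common library size) in 30d heads, against 224, 239.5 and 246 CPM in 3d heads. Every 30d sample lay far above every 3d sample. The mean level was 406 ± 33.3 CPM at 30d and 236 ± 11.3 CPM at 3d (SD, *n* = 3 each). The fold change of 30d over 3d was 0.78 in log2, with a standard error (SE) of 0.08 and a 95% interval of 0.60 to 0.96 (adjusted p = 5.17e-05, edgeR). This change stood above that of 96.7% of the genes tested. Leaving out any 1 of the 6 samples gave values of 0.73 to 0.84.

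*Tep4*, the most abundant gene of the family, had 1663, 1613 and 1735 counts in 30d heads, against 903, 1195 and 855 in 3d heads. These are 453, 441 and 496 CPM at 30d, against 297, 326 and 253 CPM at 3d. The ages again did not overlap, and the 3d samples were spread more widely than the 30d samples, with a coefficient of variation of 6.27% at 30d and 12.6% at 3d. The mean was 463.5 ± 29.1 CPM at 30d and 292 ± 36.7 CPM at 3d (SD, *n* = 3 each). In log2 the difference was 0.67 (SE 0.10, 95% interval 0.46 to 0.88, adjusted p = 0.000335, edgeR). The 6 fits that each lacked 1 sample gave 0.57 to 0.75, and the gene was called in all of them.

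*Mcr*, the member without a thioester, had 517, 556 and 488 counts in 30d heads, against 394, 441 and 442 in 3d heads. After scaling the levels were 141, 152 and 139.6 CPM at 30d, against 129, 120.4 and 131 CPM at 3d. Each 30d sample was above each 3d sample, but the step was small, with means of 144 ± 6.86 CPM at 30d and 127 ± 5.69 CPM at 3d (SD, *n* = 3 each). This difference of 0.18 in log2 (SE 0.08, 95% interval 0.018 to 0.35) did not pass the threshold (adjusted p = 0.0893, edgeR). With library size alone as the scaling, the gene was called at 0.26 (adjusted p = 0.0234), and it was not called in the other 12 of 13 alternative fits.

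*Tep3* had 255, 278 and 267 counts in 30d heads, against 259, 244 and 215 in 3d heads, or 69.5, 76.0 and 76.4 CPM at 30d, against 85.1, 66.6 and 63.7 CPM at 3d. The ages overlapped, since the highest and the lowest of the 6 values were both from 3d heads. The estimate was 0.05 in log2 (SE 0.11, adjusted p = 0.789, edgeR), and its 95% interval of -0.20 to 0.29 leaves room for a moderate change in either direction. The estimate depended on single 3d samples: it was 0.18 without replicate 1, which holds the highest value (adjusted p = 0.209, edgeR), -0.01 without replicate 2 and -0.03 without replicate 3. Of all exon bases of *Tep3*, 25.6% are shared with the antisense RNA *asRNA:CR44990*. The counting ignored strand and left out reads lying wholly in exons of more than one gene, so the count of *Tep3* covers only a part of its transcript. The antisense RNA itself had 3 counts over the 30d samples and 1 count over the 3d samples.

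*Tep1* was nearly silent in these heads, with 1, 3 and 0 counts in the 30d samples, against 5, 3 and 5 in the 3d samples. The sums of 4 counts at 30d and 13 counts at 3d correspond to 0.37 CPM (exact 95% Poisson interval 0.10 to 0.95) and 1.29 CPM (0.69 to 2.21), intervals that cover counting error only. The 2 intervals overlap, which by itself is not a test of a difference. When genes this rare were kept in the fit, the fitted value was -1.72 in log2 (SE 0.85) and did not pass the threshold (adjusted p = 0.148, edgeR). *Tep5Psi* had 0 counts in all 6 samples. The upper bounds of its exact 95% Poisson intervals were 0.341 CPM at 30d and 0.366 CPM at 3d.

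**Figure D1:**
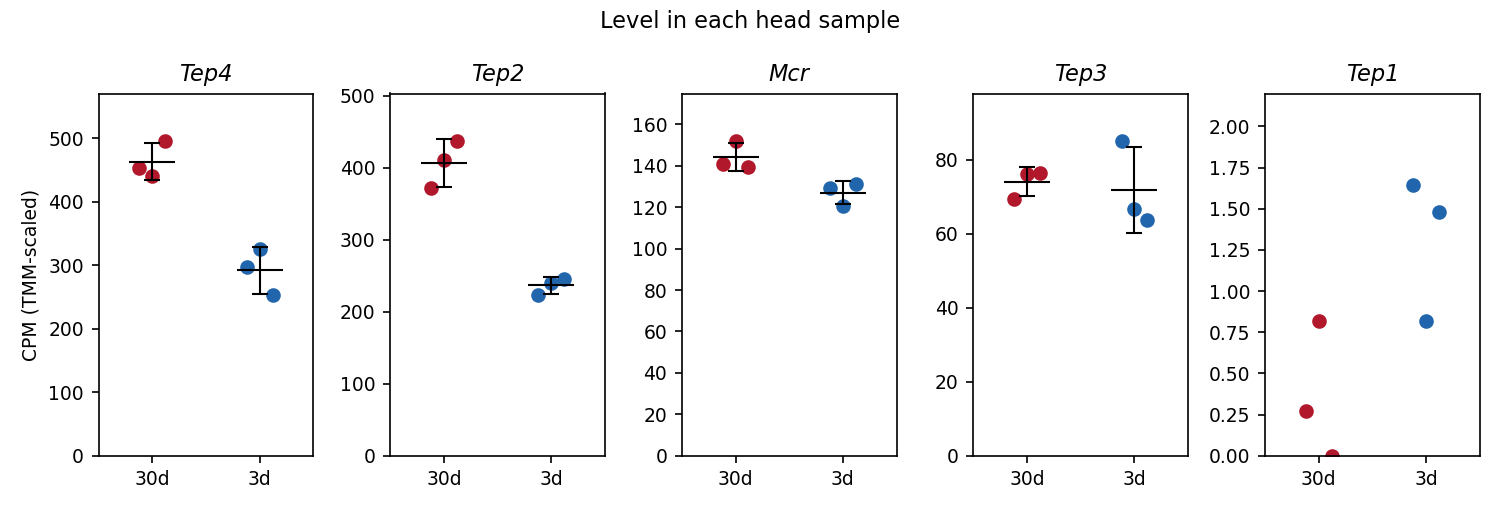
Level of each gene in CPM after TMM scaling (vertical axis from 0, a separate scale for each gene) in the 3 samples of 30d heads (red, left) and the 3 samples of 3d heads (blue, right). Points are samples and black bars the mean ± SD, left out for *Tep1*, which rests on 4 and 13 counts; the ages are apart for *Tep4*, *Tep2* and *Mcr* and overlap for *Tep3* and *Tep1*.

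Levels of different genes were compared after division by exon length, in CPM per kb. In the 30d heads *Tep4* stood highest at 90.2 to 101.5 CPM per kb, followed by *Tep2* at 70.2 to 82.7, *Mcr* at 22.2 to 24.2, *Tep3* at 14.1 to 15.5 and *Tep1* at 0 to 0.195. In the 3d heads the order was the same, with *Tep4* at 51.8 to 66.8 CPM per kb, *Tep2* at 42.3 to 46.5, *Mcr* at 19.1 to 20.8, *Tep3* at 12.9 to 17.3 and *Tep1* at 0.194 to 0.389. No neighbours in this order overlapped within an age. When only exon bases that no other gene shares were counted as length, an alternative chosen after the data were seen, *Tep3* moved up to 18.9 to 20.8 CPM per kb at 30d, against 17.4 to 23.2 at 3d. *Mcr* then had 22.6 to 24.6 CPM per kb at 30d, against 19.5 to 21.2 at 3d, so *Mcr* and *Tep3* could be ordered at 30d and not at 3d.

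The sum over the 5 genes was 1035, 1080 and 1150 CPM in 30d heads, against 736.5, 754 and 695 CPM in 3d heads. *Tep4* gave between 40.8% and 43.8% of these counts at 30d, against 36.4% to 43.3% at 3d, and *Tep2* gave 35.9% to 38.0% at 30d, against 30.4% to 35.3% at 3d. *Mcr* gave 12.1% to 14.1% at 30d, against 16% to 18.8% at 3d. *Tep3* gave 6.65% to 7.04% at 30d, against 8.84% to 11.6% at 3d. Shares of *Tep2* were thus higher, and those of *Mcr* and *Tep3* lower, in every 30d sample than in any 3d sample, while the range for *Tep4* overlapped between the ages. A share falls when other genes of the sum rise, so the lower shares of *Mcr* and *Tep3* do not mean lower levels.

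The ratio of 2 genes within a sample does not depend on the scaling of the libraries, so ratios were used to compare the members' changes. The count of *Tep2* was 5.34, 5.40 and 5.72 times that of its neighbour *Tep3* in 30d heads, against 2.63, 3.59 and 3.86 times in 3d heads. The log2 of this ratio was higher by 0.73 at 30d, without overlap between the ages. *Tep2* was 2.63, 2.70 and 3.13 times as abundant in counts as *Mcr* at 30d, against 1.73, 1.99 and 1.88 times at 3d, a difference of 0.60 in log2. *Tep4* to *Tep3* and *Tep4* to *Mcr* differed by 0.62 and 0.49 in log2 between the ages, also without overlap. Over the 6 ratios computed, each of these 4 reached p = 0.1 in the exact two-sided permutation test, the smallest that 3 samples against 3 allow, and 0.15 after Benjamini-Hochberg adjustment. The ratio of *Tep2* to *Tep4* was 0.819, 0.93 and 0.881 at 30d, against 0.754, 0.734 and 0.97 at 3d. It overlapped between the ages (exact permutation p = 0.5), as did that of *Mcr* to *Tep3* (exact permutation p = 0.6). A difference in size between the changes of *Tep2* and *Tep4* was not detectable with these samples.

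**Figure D2:**
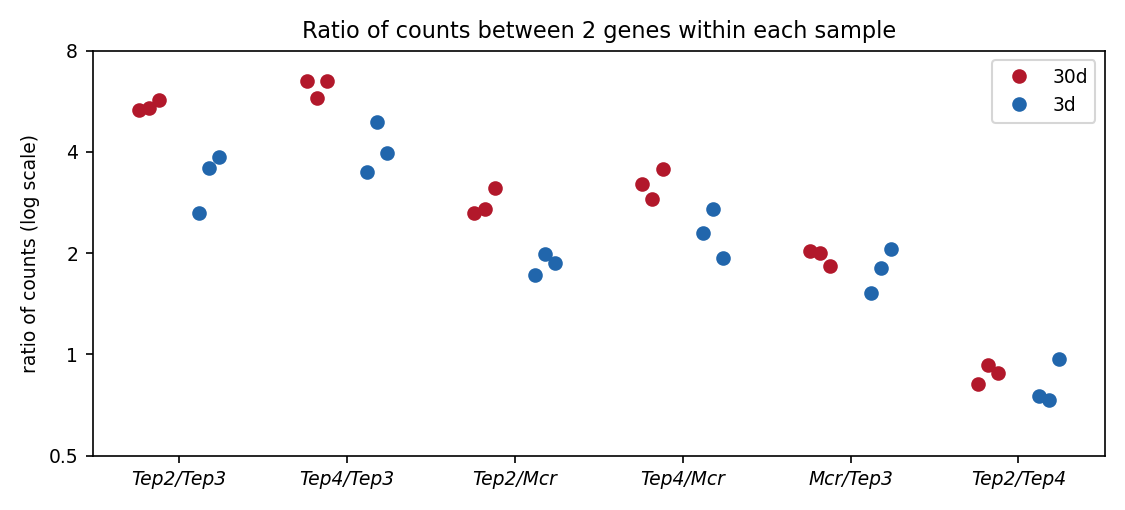
Ratio of the counts of 2 genes within each sample (vertical log axis, no unit), for the 6 pairs of the 4 genes tested, in 30d heads (red, left of each pair) and 3d heads (blue, right). Points are samples; the 4 ratios of *Tep2* or *Tep4* to *Tep3* or *Mcr* are higher in all 3 samples at 30d, and the remaining 2 overlap.

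The pair *Tep2* and *Tep3* shares the 1203 bp between its start sites, with log2 fold changes of 0.78 for *Tep2* and 0.05 for *Tep3*. The genes on either side of this pair were almost unread. *CG7025*, beyond *Tep2*, had 1 count over the 30d samples and 0 over the 3d samples, and *Ntl*, beyond *Tep3*, had 4 counts at 30d and 8 at 3d. *CG43235*, whose exons overlap 1.80% of the exon bases of *Tep2*, had 2 counts at each age. Next to *Tep4*, *CG10337* was scarce, at 3.99 ± 0.80 CPM in 30d heads and 1.60 ± 0.39 CPM in 3d heads (SD, *n* = 3 each), and was called higher at 30d, by 1.30 in log2 (SE 0.37, adjusted p = 0.0173, edgeR). Its 6, 6 and 4 counts in the 3d samples mean that it passed the filter only through the 30d samples. Beside *Mcr*, *Trf* and *Bsg* did not pass the threshold, with log2 fold changes of 0.04 (SE 0.34) and -0.20 (SE 0.08). The genes closest to *Tep1* gave no value: *CR31824* had 0 counts in all samples, and the transposable element on its other side, like the pseudogene *CR46413* after *Tep4*, was not analysed here.

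**Figure D3:**
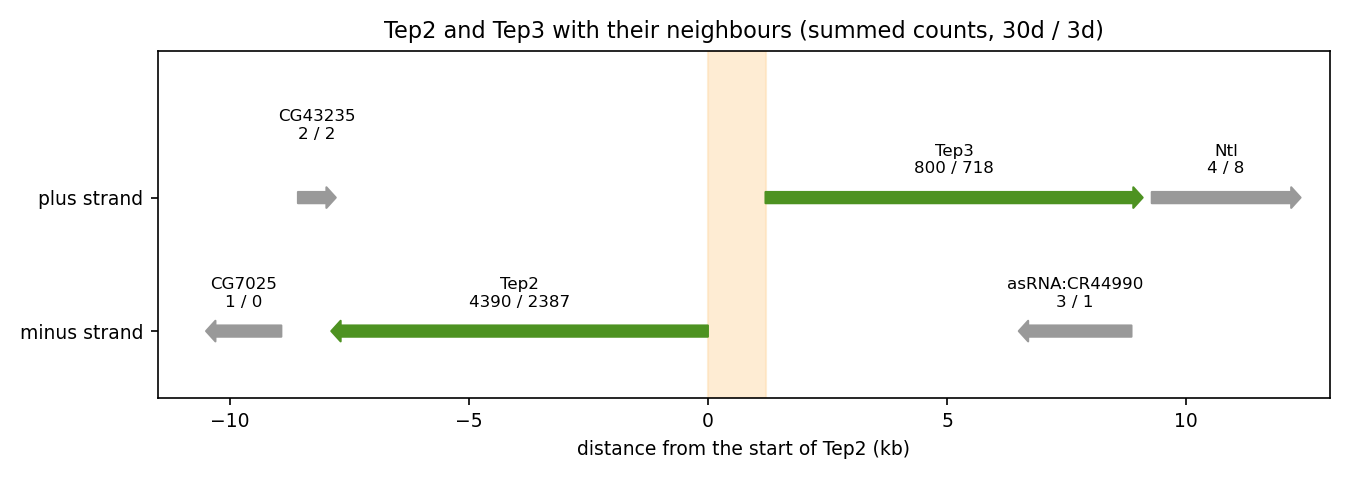
Map of *Tep2* and *Tep3* (green) and their annotated neighbours (grey) on the plus and minus strands, against distance from the start of *Tep2* in kb. Each arrow spans a gene in its direction of transcription, the numbers are summed counts over the 3 samples at 30d and at 3d, and the shaded 1203 bp separate the starts of *Tep2* (4390 and 2387 counts) and *Tep3* (800 and 718 counts).

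The fold changes of the 4 genes tested were recomputed under 7 other scalings, filters, tests or the replicate block. *Tep2* lay between 0.77 and 0.86 and *Tep4* between 0.66 and 0.74, and both were called in all 13 alternative fits, those that leave out a sample included. *Mcr* lay between 0.17 and 0.26, and *Tep3* between 0.04 and 0.12. Among these 7, scaling by library size alone gave the highest value of each gene. That scaling also moved the split of all calls to 1715 genes higher and 1053 lower at 30d, against 1259 higher and 1410 lower with TMM.

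**Figure D4:**
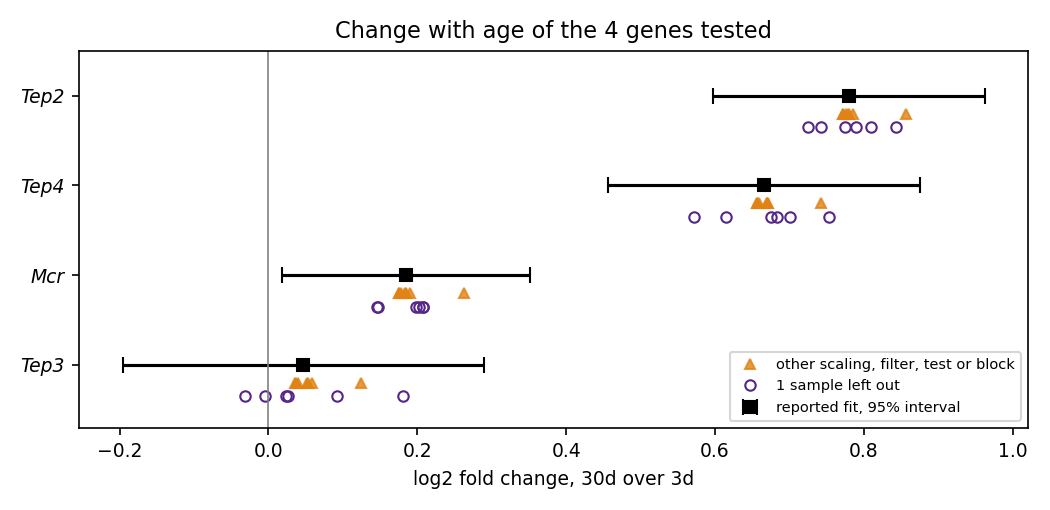
Log2 fold change of 30d over 3d heads (horizontal axis) for *Tep2*, *Tep4*, *Mcr* and *Tep3*. Squares with bars are the reported edgeR fit with its 95% interval. Triangles are the 7 fits with another scaling, filter, test or the block, and open circles the 6 fits with 1 sample left out. The fitted values of *Tep2* and *Tep4* stay above 0.57 in all fits. The 95% interval of *Tep4* reaches down to 0.46, and that of *Tep3* crosses 0.

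Thioester proteins act with the receptors by which phagocytes bind and take up their targets. This list and those below were chosen with earlier results of these data known, so their counts are descriptions and not tests of enrichment. Of the 16 phagocytosis genes tested among 22 in the table, 6 rose and 0 fell, where 14.4% of all genes tested rose and 16.1% fell. The median log2 fold change was 0.22, against 0.02 over all genes tested. *Itgbn*, an integrin beta subunit known for uptake by hemocytes, had 3.81, 6.02 and 6.29 CPM in 30d heads, against 2.299, 1.91 and 1.78 CPM in 3d heads (1.42 in log2, SE 0.34, adjusted p = 0.0073, edgeR). With 7, 7 and 6 counts in the 3d samples, it passed the filter only through the 30d samples, and without such genes 5 of the list were called. *NimB2*, a secreted Nimrod protein, averaged 209 ± 5.46 CPM at 30d and 149 ± 10.6 CPM at 3d, and *NimC1*, a phagocytosis receptor of hemocytes, averaged 67.9 ± 7.62 CPM at 30d and 50.1 ± 5.87 CPM at 3d (SD, *n* = 3 each). They rose by 0.49 and 0.43 in log2, and the scavenger receptor *Sr-CI* rose by 0.43. *drpr*, the engulfment receptor for dying cells, was not called and had 177, 186.5 and 179 CPM at 30d, against 208, 193 and 194 CPM at 3d (-0.13 in log2, SE 0.07). The phagocytosis receptors *eater* and *crq* were not called either, at -0.29 (SE 0.18) and 0.11 (SE 0.09) in log2.

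The next list, drawn up for melanization and hemolymph proteases, held proteases, serpins and recognition proteins. Of its 18 genes, 16 were tested, 11 rose and 0 fell, beside 14.4% and 16.1% over all genes tested, with a median log2 fold change of 0.38. *Spn27A*, a serpin that restrains melanization, averaged 98.0 ± 9.87 CPM at 30d and 62.5 ± 5.83 CPM at 3d (0.65 in log2, SE 0.10, adjusted p = 0.000585, edgeR). The protease *ea* rose by 0.48, and *GNBP3* and *GNBP1*, members of a family of microbe-binding proteins, rose by 0.46 and 0.44. The prophenoloxidases *PPO1* and *PPO2*, the enzymes of melanization itself, were not called, at -0.33 (SE 0.25) and -0.46 (SE 0.22) in log2. The count was 7 in place of 11 when 30d replicate 3 or 3d replicate 3 was left out, and DESeq2 called 6.

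The JAK-STAT list was measured because *Tep1* follows that pathway. Of 15 genes, 12 were tested, 0 rose and 3 fell, with a median log2 fold change of -0.01. A share of 3 in 12 called is no larger than the 30.4% over all genes tested. The cytokine gene *upd3* had 4 counts over the 30d samples and 1 over the 3d samples, and *upd1* had 0 in all. The receptor *dome*, the kinase *hop* and the transcription factor *Stat92E* stood at 0.04 (SE 0.11), 0.09 (SE 0.10) and 0.11 (SE 0.09) in log2 and were not called. The 3 genes that fell were the stress-induced humoral factors *TotC*, *TotM* and *TotA*, by 0.84, 0.81 and 0.55 on the log2 scale. *TotC* had 404, 206 and 310.1 CPM at 30d, against 583, 513 and 552 CPM at 3d. *TotM* overlapped between the ages, with 60.75, 27.6 and 34.9 CPM at 30d, against 88.0, 60.63 and 68.2 CPM at 3d. *TotX*, of the same family, went the other way and was not called, at 0.24 in log2 (SE 0.15).

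*Mcr* was compared with the other septate junction genes. Of the 21 tested, 4 rose and 2 fell, with a median log2 fold change of 0.09. The list ran from -0.93 to 0.48, a range too wide for the value of 0.18 for *Mcr* inside it to show a likeness. The 6 called of 21 are close to the 30.4% of all genes tested. The 2 genes that fell, *nrv2* and *Atpalpha*, encode subunits of the sodium pump, with differences of -0.93 (SE 0.11, adjusted p = 6.3e-05, edgeR) and -0.92 (SE 0.11, adjusted p = 7.49e-05, edgeR) in log2. *Gli*, the gliotactin of tricellular junctions, and *Cont*, an adhesion protein, rose by 0.40 and 0.32. The count of 6 called genes fell to 3 without 30d replicate 2, and DESeq2's test called 3.

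**Figure D5:**
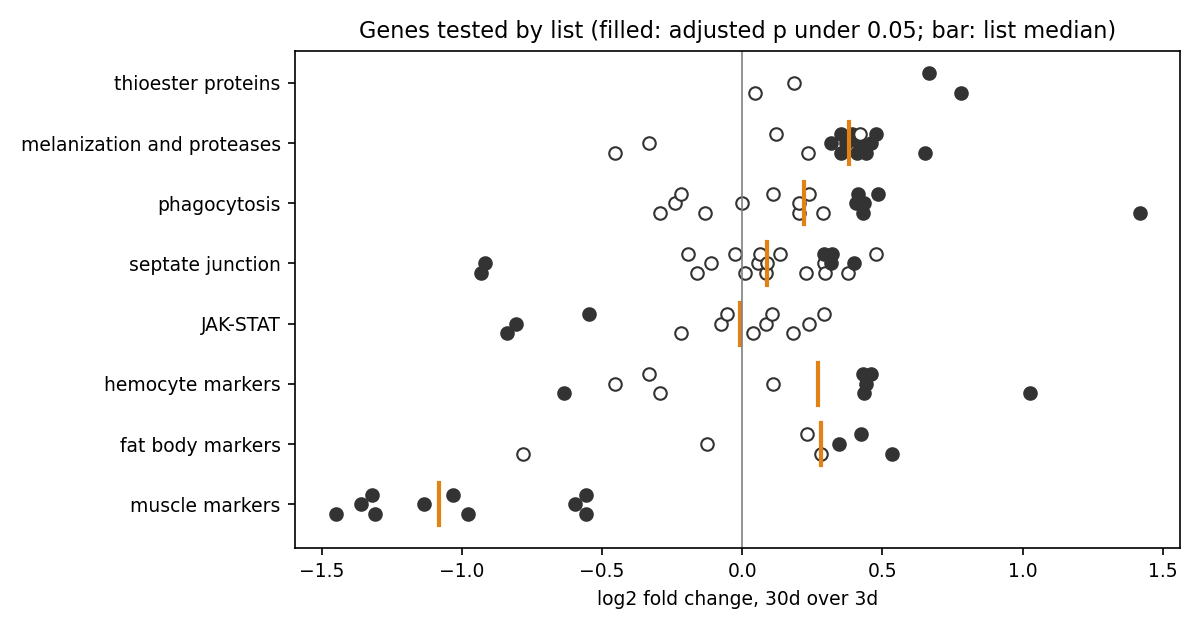
Log2 fold change of 30d over 3d heads (horizontal axis) for each gene tested in the thioester protein family and in 7 lists. Filled points have an adjusted p-value under 0.05 and orange bars are list medians, which run from -1.08 for the muscle markers to 0.38 for the hemolymph proteases.

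Markers of the cells that make thioester proteins were measured in the same samples and did not move as one, with 30.4% of all genes tested called for comparison. Of 10 hemocyte markers tested among 11, 5 rose and 1 fell, and *NimC1* and *Sr-CI* among those that rose also stand in the phagocytosis list. *lz*, a transcription factor of crystal cells that is also used in the eye, rose by 1.03 in log2, and the blood cell factor *srp* by 0.46. *PPO1* and *PPO2*, the enzymes of crystal cells, and *eater* were not called, at -0.33, -0.46 and -0.29 in log2. *Hml*, a clotting protein of hemocytes, had 338, 418 and 394.5 CPM at 30d, against 289.7, 282 and 274 CPM at 3d, while *Pxn*, an extracellular peroxidase, fell by 0.63 in log2, and *He* was near 0 with 13 counts over the 30d samples and 10 over the 3d samples. The summed level of the hemocyte markers was 977 to 1148 CPM at 30d, against 938 to 1066 CPM at 3d. Of 7 fat body markers tested among 11, 3 rose and 0 fell, with a median log2 fold change of 0.28. The 3 were *Mtp* and *Apoltp*, which serve lipid transport, and the yolk protein gene *Yp3*, by 0.54, 0.34 and 0.42 in log2. *apolpp*, *FASN1* and the larval serum protein gene *Lsp2* were not called, at 0.28 (SE 0.11), 0.23 (SE 0.13) and -0.78 (SE 0.41) in log2. The summed level of the fat body list, most of it from *apolpp* and *FASN1*, was 8197 to 10130 CPM at 30d, against 7485 to 8029 CPM at 3d, and *Fbp2* was at 0 in all samples. The 10 muscle markers tested among 12 all fell, *Act88F*, *Mlc2*, *Mlc1* and *Prm* by 1.45, 1.36, 1.32 and 1.31 on the log2 scale. *Act88F*, with 10, 14 and 7 counts at 30d, passed the filter only through the 3d samples, and without such genes 9 of the list were called. The sum of the list was 2140 to 2256 CPM at 30d. At 3d it was 5583 CPM in replicate 1, against 3704 and 3755 CPM in replicates 2 and 3. Of 5 neuronal markers 4 fell, of 5 glial markers 3 and of 5 photoreceptor markers 2, with 0 that rose in each list. *nrv2*, among the glial markers that fell, also stands in the septate junction list, and 2 glial markers were higher at 30d without being called. The rhodopsin *ninaE*, which marks photoreceptors and so heads, stood at 31270 ± 3360 CPM at 30d and 25140 ± 3440 CPM at 3d (SD, *n* = 3 each). It was not called (0.31 in log2, SE 0.14, adjusted p = 0.103, edgeR). Of the 5 photoreceptor markers, *ninaE* was the only 1 with a higher level at 30d, and the others were lower. The part of these markers in the rise of *Tep2* and *Tep4* was not tested.

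The genes with the most similar pattern were sought by the root mean square difference of log2 CPM from each gene's own mean over the 6 samples, among 6442 other genes with a mean of at least 50 counts. *CG9008* and *CG11899* were closest to *Tep2*, at 0.050 and 0.061. *Pabp2* and *CG3505* were closest to *Tep4*, at 0.041 and 0.052. *CG32638* and *CG4393* were closest to *Mcr*, at 0.024 and 0.025, and *NitFhit* and *Clbn* to *Tep3*, at 0.016 and 0.029. Within the family, *Tep2* and *Tep4* differed from each other by 0.148, and *Mcr* and *Tep3* by 0.149. The 4 other pairs differed by 0.294 to 0.402. *Tep4* ranked 152 in likeness to *Tep2*, and *Tep2* ranked 128 in likeness to *Tep4*. *Mcr* and *Tep3* were not close by rank, despite a difference of like size: *Tep3* ranked 1900 in likeness to *Mcr*, and *Mcr* ranked 845 in likeness to *Tep3*.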

How the data were processed

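The authors aligned single-end MiSeq reads of poly(A)-selected head RNA to dm6 with STAR, counted reads per gene over exons by HTSeq (intersection-strict mode, strand ignored), and deposited raw counts for 17492 genes, from 3 samples at each age. No column of sample values was left unused. The annotation release used for counting is not given in the sources used here. Positions and exon lengths came from Ensembl release 115 for the same assembly. Sequences of the genes and proteins were not used here.

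The ages were compared with edgeR 4.0.16 (R 4.3.3): default filter by age (minimum count 10, 8773 genes kept), TMM scaling, two-sided quasi-likelihood test without a block, and Benjamini-Hochberg adjustment over all genes tested, with a threshold of 0.05. The standard error is the log2 fold change divided by the square root of F. Single values were also compared by exact permutation over the 20 orderings of the samples. Alternatives were DESeq2 1.42.0 (size factors, Wald test), limma-voom 3.58.1, library size alone, 2 other filters, a block for the replicate number, omission of each sample, and unshared exon length. Plots used matplotlib 3.10.9. The fit was tested on simulated counts.

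The members and gene lists were chosen with earlier results of these data known. Named were the 5 members, *Tep5Psi*, up to 4 called genes per list with the largest change, genes with a direct tie to thioester proteins, nearest neighbours, and the 2 genes most alike in pattern; neuronal, glial and photoreceptor lists are given as counts. *PPO1*, *PPO2*, *upd1*, *TotX*, *He*, *apolpp*, *FASN1*, *Lsp2*, *Fbp2* and *ninaE* were added after their values were seen. The listed genes *scb* and *aka* were not analysed here.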

Additional observations from a re-analysis of the deposited data

How the results depend on the processing

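Scaling, filter, test or block was changed in 7 fits, and each sample was left out in 6 more. The DESeq2 Wald test brought its own size factors and filtering (13694 genes tested, against 8773), so that fit changed 3 choices together. *Tep2* and *Tep4* kept their direction and their call in all 13, from 0.73 to 0.84 and from 0.57 to 0.75 on the log2 scale with a sample left out. *Mcr* was higher at 30d in all 13, from 0.15 to 0.21 with a sample left out, and was called only with library size alone, at 0.26. *Tep3* was called in none, with adjusted p-values from 0.209 to 0.982, and its direction turned with a sample left out, over a range from -0.03 to 0.18, with -0.0051 without 3d replicate 2 and -0.031 without 3d replicate 3. The DESeq2 Wald test called 741 genes higher at 30d, 3 septate junction genes and 6 hemolymph genes. Without the filter, 6 fat body markers were called in place of 3. With a sample left out, between 3 and 8 septate junction genes and between 7 and 11 hemolymph genes were called. Counted over unshared exon bases, *Tep3* averaged 20.2 CPM per kb at 30d, against 19.6 at 3d. With the replicate number as a block, 2907 genes were called in place of 2669, and the fold changes were 0.78 for *Tep2*, 0.67 for *Tep4*, 0.18 for *Mcr* and 0.05 for *Tep3*, with no change of a member's call. Deviations of same-numbered samples correlated by 0.187, -0.017 and 0.073, so the numbers do not show a pairing. *Tep1*, below the filter, did not pass the threshold in either fit that kept it, at -1.72 (adjusted p = 0.148, edgeR) and -1.84 (adjusted p = 0.35, DESeq2).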
